A study of Mus musculus with 8 samples.

Results

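The MYC network is a family of transcription factors that bind DNA as pairs through a basic helix-loop-helix leucine zipper (bHLHZ) domain, and 10 of its genes are described here: Myc, Mycn, Mycl, Max, Mxd3, Mxd4, Mxi1, Mnt, Mga and Mlx. They were taken by name from the gene list of the study, and all 10 were among its 17597 genes. The RNA came from mouse embryonic stem cells of a Cast x 129S cross. All cells, treated or not, carried METTL3, the enzyme that writes N6-methyladenosine (m6A), fused at its C terminus to the FKBP12 F36V degron tag, and an Xist gene under a TetOn promoter that was left uninduced because no doxycycline was given. The dTAG-13 group of 4 libraries was exposed for 26 hours to dTAG-13, the small molecule that directs the tagged protein to destruction, and the untreated group also held 4 libraries. Each group held the clones C3 and H5 with 2 libraries per clone, so the genotype is represented by 2 clones. Cells were grown with serum and LIF on inactivated fibroblast feeders.

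The values below are levels over all 8 libraries together. The table gives for each gene 1 mean count, which is the authors' average of the depth-scaled counts of the 8 libraries, and no value for any library or group. Its remaining columns are the authors' own comparison of dTAG-13 with untreated cells, which is not used here. The level of a member with and without METTL3, its spread over replicates and clones, and any test between the groups are therefore not analysed here, and no standard deviation can be placed beside a value. The mean counts of all genes added up to 14573411, and the 10 members held 0.117% of that sum.

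MYC proteins activate transcription when paired with MAX, and promote growth, ribosome production and metabolism. MXD proteins, MXI1 and MNT compete for MAX, bind the same E-box sites and repress. In embryonic stem cells MYC activity sustains self-renewal in serum and LIF, and MGA together with MAX anchors a variant Polycomb complex, PRC1.6, that keeps germ cell genes silent. MYC transcripts are known carriers of m6A, which METTL3 writes most often at the sequence GGACT.

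The sequences that tie the family to both subjects are short. The E-box CACGTG, the site that MYC and MAX and their relatives recognise, reads the same on both strands and was sought in RefSeq promoter windows of build GRCm38.p6, from 250 bases before to 50 bases after each start site. Of the members, 9 had 1 or more windows (11 in all), and 4 windows held the motif, against 9.24% of the 16247 windows of genes in the table and 7.15% of all 32851 windows. Myc had no window. With so few windows these shares are a description. The 4 matches are shown because they are the exact matches to the family's own recognition letters in these windows. Variants of the motif and sequence outside the windows were not searched. Each match has 10 bases on each side and the motif in capitals, in the direction of transcription of the gene.

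Max, chr12:76962236-76962261, minus strand: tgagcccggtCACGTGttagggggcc
Mlx, chr11:101087240-101087265, plus strand: tgggttggatCACGTGactgagcctc
Mnt, chr11:74830791-74830816, plus strand: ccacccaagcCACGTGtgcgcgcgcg
Mxd4, chr5:34187914-34187939, minus strand: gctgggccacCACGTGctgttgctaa

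In Max the motif began 3 bases before the RefSeq start site, and in Mlx 40 bases before it. In Mnt it began 123 bases and in Mxd4 219 bases upstream. The gene spans printed further below are from GENCODE, whose gene boundaries differ from these start sites, so distances measured from those boundaries would differ. The windows of Mycn, Mycl, Mxd3, Mga and Mxi1 (3 windows) did not contain these 6 letters. The match is no measure of binding, and levels did not sort by it: 2 of the 4 genes with a match were among the abundant members and the other 2 were the lowest of all.

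Members differed widely in level. To compare genes, the mean count was divided by the exon bases of the gene in kb, which gives a mean count per kb. Exon bases are all exons of the gene in GENCODE vM21, merged. The paper took its gene annotation from the UCSC genome browser, so the exons that were counted may differ from these. Per kb of exon the members spanned 178-fold, from 970.3 for Mycn to 5.45 for Mxd4. Their median was 168.8, against 39.8 over 17382 genes with a known length. With the other lengths tried, Max was the highest and Mxd4 still the lowest. The ratio of Max to Mxd4 was 135 with the longest transcript, and 73.8 with the median protein-coding transcript or the longest coding sequence. Per kb of exon, 7 members lay above the median of all genes. The number was 5 once genes counted below 10 on average were left out, when Mycl and Mxi1 fell below the median, and 6 with the median protein-coding transcript as the length. The order per kb of exon was Mycn, Max, Mga, Mlx, Myc, Mxi1, Mycl, Mxd3, Mnt and Mxd4. Without values per library it cannot be said which neighbours in that order differ beyond their spread. The closest pair, Mxi1 at 62.1 and Mycl at 61.8 per kb, differed by 1.00-fold on this scale, and by more under the other lengths tried. The widest steps were the 4.44-fold one from Myc to Mxi1 and the 5.84-fold one from Mnt to Mxd4. With the longest coding sequence as the length they shrank to 1.15-fold and 1.13-fold.

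**Figure D1:**
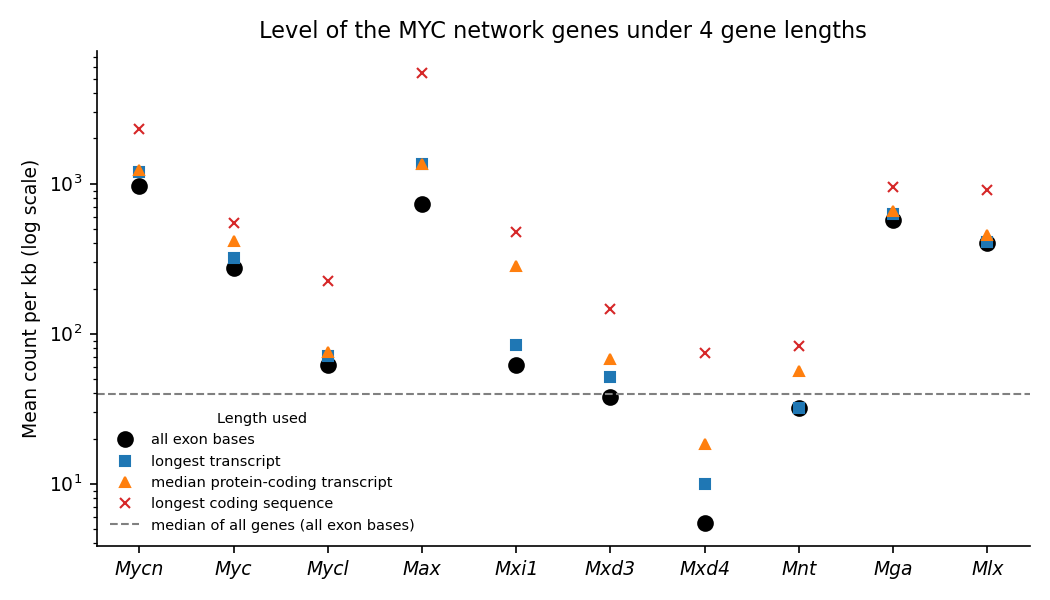
Mean count per kb of each member on a log axis, with the count divided by 4 different gene lengths (symbols), and the median of all genes by exon bases as a dashed line. Each point is the authors' mean over 8 libraries and has no error bar because no value per library was used. Mycn, Max, Mga, Mlx and Myc are the 5 highest members under each length, Mycn and Max trade places with the length, and Mxd4 is lowest throughout.

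Among the MYC paralogs, Mycn was the most abundant. Mycn (chr12:12936093-12941914 in GRCm38, the build of mm10) encodes N-MYC, the family member prominent in early embryos, and its mean count of 3197 placed it 995th of all genes, at the 94.3rd percentile. Myc (chr15:61985391-61990374), which encodes c-MYC, had a mean count of 748 and stood at the 74.3rd percentile. Mycl (chr4:122995652-123002485), which encodes L-MYC, had a mean count of 250 and stood at the 54.9th percentile. Per kb of exon the levels were 970.3 for Mycn, 275 for Myc and 61.8 for Mycl. The level of Mycn was thus 3.52-fold that of Myc, and the level of Myc 4.46-fold that of Mycl. Under the 3 other lengths these ratios ran from 2.95 to 4.20 and from 2.43 to 5.51, so the order of the paralogs was the same under all 4 lengths tried.

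Max (chr12:76937269-76962201), the common partner that MYC, MXD, MNT and MGA proteins all pair with, had a mean count of 2614 at the 92.6th percentile. Its level was 726 per kb of exon, 0.749 times that of Mycn. This comparison depended on the length: Max was 1.13-fold higher than Mycn with the longest transcript, 1.10-fold with the median protein-coding transcript and 2.36-fold with the longest coding sequence, and which of the pair is higher is not settled. Max has a coding sequence of 480 bases, the shortest of the members, inside 3598 exon bases.

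Levels of the 4 MXD and MNT repressor genes were low per kb of exon. Mxi1, Mxd3 and Mxd4 encode MXD-type repressors and Mnt a related repressor that is widely expressed in other tissues. Mxi1 (chr19:53310518-53375810) had a mean count of 424, which is 62.1 per kb of exon and the 56.7th percentile on that scale. Mxd3 (chr13:55325168-55329823) had a mean count of 89.9, or 38.0 per kb, at the 49.3rd percentile. Mnt (chr11:74830920-74845725) had a mean count of 147, or 31.8 per kb, at the 47.0th percentile. Mxd4 (chr5:34173883-34187720) had a mean count of 46.3, or 5.45 per kb, at the 28.1st percentile. Of these 4 genes, only Mxi1 lay above the median level of all genes on this scale. None did once genes counted below 10 on average were left out (Mxi1 at the 44.1st percentile). With the median protein-coding transcript as the length, Mxi1 instead rose to the 68.4th percentile. Together the 4 genes amounted to 137 per kb of exon, against 1308 per kb for Myc, Mycn and Mycl, a ratio of 9.52. The ratio was 8.92 with the longest transcript, 4.04 with the median protein-coding transcript and 3.95 with the longest coding sequence. The shift came mainly with Mxi1, whose exon bases (6823) are far longer than its median protein-coding transcript (1491 bases). The ratio also depends on how the group is drawn. Mga, whose protein acts with MAX in a silencing complex, is not counted in it and stood at 568 per kb of exon.

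The roles of MGA and MLX reach beyond MYC. Mga (chr2:119897228-119969581) encodes a very large protein with a T-box as well as a bHLHZ domain. It had the highest mean count of the members, 8716, which was 206th of all genes and 51.2% of the summed mean counts of the members. It also had the most exon bases, 15340, over which the level was 568 per kb, the third in order and 18.1% of the members' summed level per kb. Mlx (chr11:101087277-101092207) encodes a partner of the glucose-sensing factors MLXIP and MLXIPL and had a mean count of 808, or 404 per kb, at the 87.6th percentile. It was 1.47-fold higher than Myc per kb of exon and 1.09-fold to 1.64-fold under the other lengths.

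By role, Myc, Mycn and Mycl held 41.6% of the members' summed level per kb. Max held 23.1%, Mga 18.1%, Mlx 12.9%, and the 4 repressor genes 4.37%. This order depended on the length: with the longest coding sequence Max held 48.8% and the MYC paralogs 27.6%, and the share of Mga was 8.55%. The repressor genes held 9.25% with the median protein-coding transcript. These are shares of RNA level, and say nothing of protein amounts, which for MYC are set by rapid protein turnover as well.

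Strand bears on 4 members. The name of the deposited table carries the word reverse, which can stand for counting by strand, while the default setting that the methods give does not use strand. The libraries were made with a stranded kit, and the authors counted their chromatin RNA libraries by strand with another program. Whether strand was used for the present values remains uncertain. Of the exon bases of Mlx, 19.3% are shared with Psmc3ip, a gene on the other strand. The shared part was 6.06% for Mxd4, 4.43% for Mxd3 (with Prelid1) and 2.84% for Mxi1. How far reads of these neighbours entered the values was not tested. The other 6 members share no exon bases with another gene in the annotation.

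Genes that work with the network are given from lists, with each level again per kb of exon. No other length was tried for the lists, so their comparisons with members hold for exon bases only. The list of further bHLHZ genes of the wider family held 3. They were lower than most members: Mlxip was at 31.6, Mxd1 at 10.7 and Mlxipl at 4.19, all under the median of all genes. Both glucose-sensing partners of MLX were thus far below Mlx itself.

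The 14 MYC cofactors, which open chromatin or are recruited with MYC or MXD proteins, all lay above the median of all genes, from 124 (Trrap) to 1797 (Ruvbl1), with a median of 520. Ruvbl1, Ruvbl2 (1405) and Wdr5 (1228) were the 3 that exceeded Mycn. Ruvbl1 and Ruvbl2 are ATPases of several chromatin complexes, and Wdr5 is a scaffold that contacts MYC directly. Sin3a and Sin3b, the corepressors that MXD proteins recruit, were at 602 and 265. Both were higher per kb of exon than each of the 4 repressor genes themselves. Whether Sin3b also exceeds Mxi1, whose level depends on the length used, was not tested under other lengths.

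The 8 genes that control MYC protein turnover ran from 43.0 to 1048 with a median of 338. Aurka, a kinase that stabilises N-MYC, was the highest and exceeded Mycn. Huwe1, a large ubiquitin ligase of MYC, followed at 831. Fbxw7, the ligase subunit that recognises phosphorylated MYC, was at 134, and Gsk3b, the kinase that prepares that site, was the lowest at 43.0.

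Of the 11 partners of MGA in PRC1.6, 7 were at a higher level than Mga itself per kb of exon, the only length tried for them. They ran from 48.7 to 1228 with a median of 690, beside 568 for Mga. Wdr5 and Tfdp1 (998) exceeded Mycn. L3mbtl2 was at 728 and Pcgf6, the subunit that defines this complex, at 300. Ring1 (48.7) and Yaf2 (63.7) were the lowest, while their counterparts Rnf2 and Rybp were at 690 and 799.

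Well-known MYC target genes stood high, with 17 of 18 above the median of all genes, 11 above Mycn and a median of 1500. Npm1, a nucleolar chaperone, was at 12344, Eif5a, a translation factor, at 5225 and Ldha, a glycolytic enzyme, at 4736. The lowest were Tert at 47.9 and Ccnd2 at 14.8. Genes of this kind are abundant in most dividing cells, and their level is no measure of MYC activity here.

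**Figure D2:**
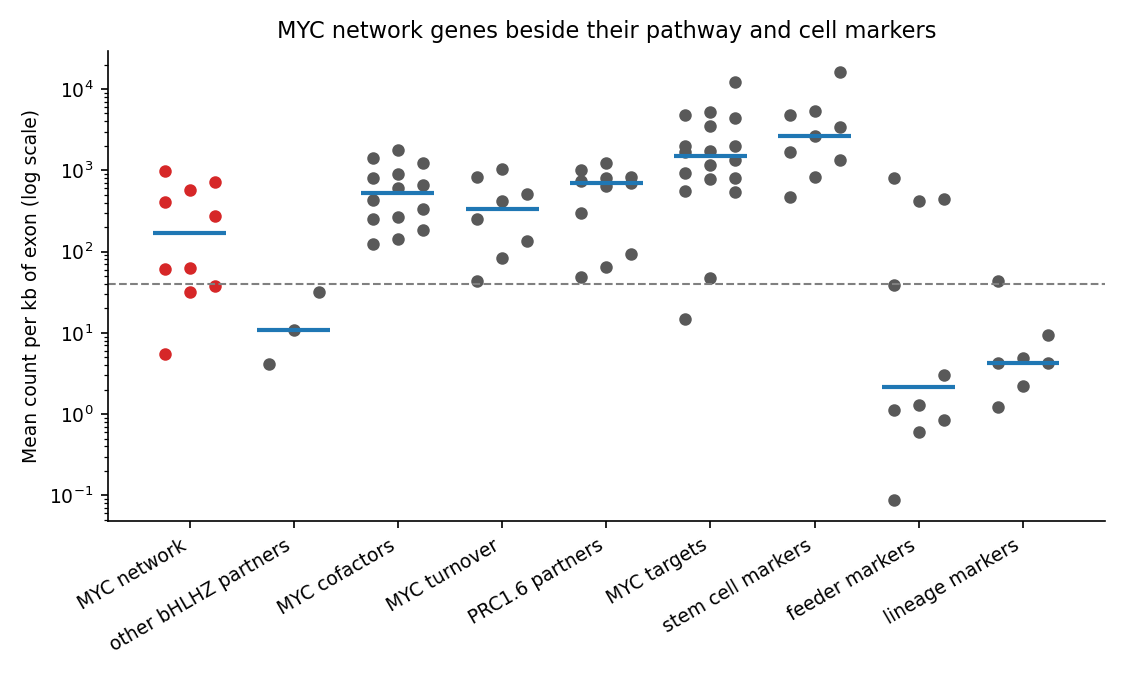
Mean count per kb of exon (log axis) for the 10 MYC network genes (red) and for the genes of 8 lists (grey), with the median of each list in blue and the median of all genes, 39.8, as a dashed line. The members reach from 5.45 to 970.3, and the remaining bHLHZ genes lie below the dashed line. The medians of cofactors, turnover genes, PRC1.6 partners, target genes and stem cell markers lie above the members' median of 168.8.

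Markers of the labelled cell type and of other cells were read on the same scale. They were chosen after their values were seen, so they describe the RNA and are no check of the label. The 9 stem cell markers were all above the median of all genes, from 464 for Klf4 to 16142 for Dppa5a, with Pou5f1 at 5309 and Nanog at 2646. Of the 10 feeder markers, 7 lay below that median, with Thy1 only just below it at 38.7. Among the others Col1a1 was at 3.02, Col3a1 at 0.853 and Postn at 0.0882. Sparc (806), Fn1 (423) and Vim (437) lay above the median, and these 3 genes are not confined to fibroblasts. The 7 lineage markers had a median of 4.26, and 1 of them, T, lay above the median of all genes at 43.6. What part of any member came from feeder cells was not tested, and in pooled RNA fewer cells of a type and less RNA per cell cannot be told apart. Mettl3, the target of the degron, had a mean count of 684, or 135 per kb. The degron removes protein, so this RNA value does not check the treatment.

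Because METTL3 was the enzyme removed, the letters GGACT were counted in the longest protein-coding transcript of each member, on the transcribed strand only. The count describes sequence and not methylation, which was not measured in these libraries. The 10 transcripts held 43 matches: 6 in 5′ UTRs, 17 in coding sequences and 20 in 3′ UTRs. Over 16344 protein-coding genes of the table the median was 3 matches, or 1.05 per kb. Of the members, 6 had a density above that median and 2 lay above the upper quartile of 1.53 per kb. A wider count also took in the close variants GGACA and, with another last base, GGACC, and those that differ before the central A, namely GAACT and also the motif AGACT and, furthest from it, AAACT. With these 6 motifs together, 5 members were above the median and 5 below. Mxi1, 1 of the 6 by GGACT, had only 0.190 matches per kb as the median over its 8 protein-coding transcripts.

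By GGACT alone, Myc was the densest. Its 2338-base transcript held 6 matches, or 2.57 per kb, at the 95.4th percentile, and 4 of these lay in the coding sequence. Mxd3 followed with 3 matches in 1327 bases, or 2.26 per kb, at the 92.3rd percentile. Mycl had 5 matches (1.43 per kb, 70.5th percentile). Mycn, the most abundant paralog, had only 2 (0.748 per kb, 31.1st percentile), so the paralogs differed 3-fold in the number of matches between Myc and Mycn. With the 6 motifs together the gap was smaller, 8.98 per kb in Myc beside 7.48 in Mycn, and Mycn stood at the 55.7th percentile. Mxd3, at 9.04 per kb, was then slightly denser than Myc. Max was near the median with 2 matches (1.03 per kb). Mga, despite 8 matches, was at the 21.4th percentile because its transcript is 13931 bases long, and Mlx, with 1 match, was at the 18.1st. With the 6 motifs Mga was at the 48.7th and Mlx at the 35.4th percentile.

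Position in the transcript also varied. All 5 matches of Mxd4 and 5 of the 6 of Mxi1 lay in the 3′ UTR, whereas Mycn and Mlx had none there. The 3′ UTR made up 3105 of the 3872 transcript bases in Mxd4 and 4074 of 5036 in Mxi1. In Mycn it was 913 of 2674 bases and in Mlx 1042 of 1965. Whether the placement departs from these lengths was not tested. m6A is known to be most frequent around stop codons, so the match nearest to the stop codon is shown for the 4 members of highest level per kb and for Mxd3, whose match lies close to the stop codon on the 3′ UTR side. Each is printed 5′ to 3′ as transcribed, with the 5 motif letters in capitals.

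Mycn, chr12:12937002-12937026, minus strand: gaacacgctcGGACTtgctaaacgt
Max, chr12:76953185-76953209, minus strand: acagtttgcgGGACTcagtcccatc
Mga, chr2:119965407-119965431, plus strand: gggcatggtaGGACTgggcatggta
Mlx, chr11:101089757-101089781, plus strand: aaggcatcatGGACTccctcttcca
Mxd3, chr13:55325742-55325766, minus strand: tactctccttGGACTgagcctgcca

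Distances run from the motif's A to the last base of the stop codon. In Mycn that A lay 8 bases before it, in Max 340 bases and in Mlx 157 bases before it, all in coding sequence. In Mga it lay 454 bases and in Mxd3 29 bases after it, both in the 3′ UTR. In Myc the nearest match lay 67 bases before the end of the stop codon.

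**Figure D3:**
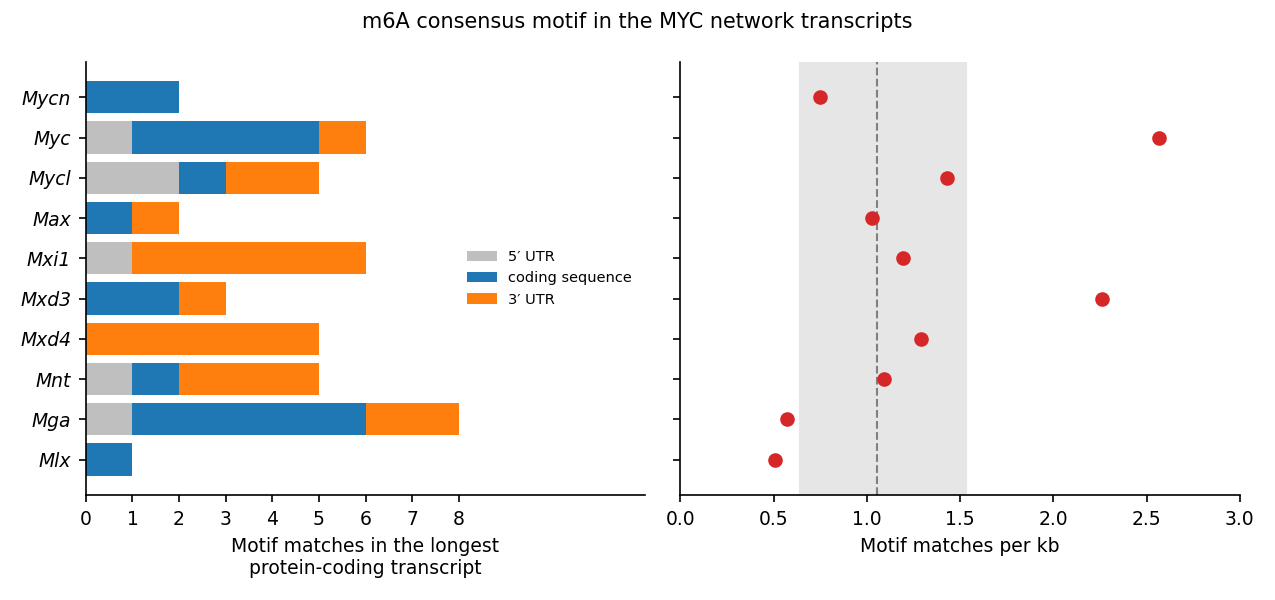
Left, matches to the m6A consensus motif in the longest protein-coding transcript of each member, stacked by 5′ UTR, coding sequence and 3′ UTR. Right, matches per kb (points) with the quartile range of 16344 genes shaded, 0.642 to 1.53, and their median dashed; Myc at 2.57 and Mxd3 at 2.26 lie above the shaded range, and Mga at 0.574 and Mlx at 0.509 below it.

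m6A is concentrated in long exons, and the exon layout of the network was uneven. The median gene had 3.17 exons per kb of transcript and a longest internal exon of 219 bases. Of the members, 8 had fewer exons per kb than that median in their longest protein-coding transcript, the only one examined for exon layout. Mxi1 is 1 of the 8, and its transcript used has 5036 bases, beside a median of 1491 over its protein-coding transcripts. Mycl, with 2 exons in 3501 bases, was at the 4.43rd percentile, Mycn at the 14.2nd and Myc at the 17.2nd (3 exons each). Mxd3 (4.52 exons per kb) and Mlx (4.07) were the exceptions. Of the 9 members with an internal exon, 4 had one longer than the median gene: Mga at 1469 bases, Mycn at 877, Myc at 772 and Mnt at 586. Max had the shortest, with 124 bases at the 7.87th percentile. The last exon was longest in Mga (5890 bases) and Mxi1 (4238) and shortest in Mxd3 (731).

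GC content ranged from 42.2% in Mga, at the 10.8th percentile, to 59.5% in Mnt, at the 93.3rd. The 3 MYC paralogs were alike in this respect, with 53.3% in Myc, 54.8% in Mycn and 55.8% in Mycl.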

How the data were processed

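Total RNA of 8 libraries was sequenced as read pairs after rRNA depletion. The labels' extraction text describes chromatin RNA, while the study's methods and the molecule label describe total RNA. The authors aligned reads with STAR to mm10, kept unique alignments, removed duplicates with Picard and counted genes and transposable elements with TEtranscripts at default settings. The deposited signal is, for each feature, the average of depth-scaled (size factor) counts across libraries. The other 5 columns of the deposited table hold the authors' own comparison (log2 fold change, its standard error, statistic, p-value and adjusted p-value) and were not used, so no test between groups was run. Depth per library is unknown, and no counting interval was computed.

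Symbols were matched to GENCODE vM21 (GRCm38): 16660 directly and 722 through RefSeq synonyms, while 41 were ambiguous and 174 unmatched. A mean count was divided by merged exon length in GENCODE, which may differ from the UCSC gene annotation that the study used. Percentiles are the share of genes with a lower value. Motifs were counted with Python 3.11.15, and the functions were tested on simulated sequences. All 10 members are named, with Mettl3, all 3 remaining bHLHZ genes, and from the pathway lists the genes of highest and lowest level. Further list genes (Sin3a, Sin3b, Huwe1, Fbxw7, L3mbtl2, Pcgf6, Rnf2, Rybp) and the cell type markers were chosen after their values were seen. Members and lists were chosen with earlier results of these data known.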

Additional observations from a re-analysis of the deposited data

How the results depend on the processing

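The share of the members' summed level per kb held by Myc, Mycn and Mycl, 41.6% by exon bases, was 38.3% with the longest transcript, 37.3% with the median protein-coding transcript and 27.6% with the longest coding sequence. The last length was chosen after the data were seen, in place of the planned length from RefSeq proteins, which was not run because no protein sequences were used here. Under all 3 lengths 8 members kept their place in the order, and Mycn and Max exchanged theirs. With genes under a mean count of 10 left out, the percentile of level per kb moved by over 10% of its value for 5 members, most for Mxd4 (from 28.1 to 8.16). With 6 motifs counted together, the percentile of motif density moved by over 10% of its value for 7 members. Myc went from 95.4 to 82.5 and Mnt from 52.0 to 17.4, while Mycn rose from 31.1 to 55.7, Mga from 21.4 to 48.7 and Mlx from 18.1 to 35.4. Over all protein-coding transcripts the density of Mxi1 fell from 1.19 to 0.190 per kb. No paired analysis was possible because the deposited column used gives 1 mean over all libraries. Leaving out libraries was not run for the same reason. The values have no replicate error, and small differences between members cannot be judged.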
